A study of Mus musculus with 6 samples.

Results

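The cytosolic ribosomal protein genes were taken as the genes whose symbol is Rpl or Rps followed by a number and at most 1 letter, together with Rplp0, Rplp1, Rplp2 and Rpsa. A gene counted when at least 1 probe set of the array named it alone in the platform annotation, which held for 46 genes of the 18193 that such probe sets name, and the probe set with the highest mean over the 6 arrays stood for the gene. They were 22 genes of the small 40S subunit, 22 of the large 60S subunit, and Rplp0 and Rplp2 of the P stalk. Expression had to reach a minimum signal for a test, and 44 of the 46 reached it, among 13095 genes tested in all. Rps16 and Rpl3l did not.

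RNA came from R1 mouse embryonic stem cells grown undifferentiated with leukaemia inhibitory factor. In 3 samples the cells stably expressed a short hairpin RNA (shRNA) against Pcl2, a Polycomb-like partner of the repressive complex PRC2 encoded by Mtf2, and in another 3 they were stably transfected with a mismatch control sequence. The question was how the RNA of these cells changes with less Pcl2. The samples of a group are biological replicates per the labels, but all 3 shRNA samples came from 1 clone, so the hairpin and the clone cannot be told apart and p-values measure the spread between cultures of that clone and of the control. Values are MAS5 signals on a linear scale, given for samples 1, 2 and 3 of a group in that order or as mean ± SD (n = 3 arrays per group). Fold changes are Pcl2 shRNA over mismatch control on the scale of log2(signal + 7), each with its standard error (SE). The p-values are limma's, adjusted over all genes tested by the Benjamini-Hochberg method, with a threshold of 0.05.

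A ribosome is assembled from ribosomal RNA and about equal numbers of copies of each ribosomal protein, so these genes are transcribed at high and matched levels in growing cells. Their mRNAs start with a run of pyrimidines, the TOP motif, through which the kinase mTOR and the RNA-binding protein Larp1 set their translation. Some members have a paralogue used in particular tissues, such as Rpl39l in male germ cells or Rpl3l in heart and skeletal muscle, and embryonic stem cells are known for low overall translation despite abundant ribosome transcripts.

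The start sites of 6 bright members are given first, because those genes followed 1 profile over the arrays. The longest pyrimidine run in each window is marked, wherever it lies. They are the brightest members that have a single promoter entry in the RefSeq table (GRCm38.p6), 15 bases before and 15 after the annotated start, 5′ to 3′ on the gene's strand, with the longest run of C and T in capitals.
Rps18, chr17:33955651-33955680, minus strand: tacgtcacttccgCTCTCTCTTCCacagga
Rps28, chr17:33824548-33824577, minus strand: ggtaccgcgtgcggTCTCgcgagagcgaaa
Rpl13a, chr7:45128731-45128760, minus strand: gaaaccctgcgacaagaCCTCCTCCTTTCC
Rps10, chr17:27635230-27635259, minus strand: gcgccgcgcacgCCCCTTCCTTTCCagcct
Rpl7a, chr2:26910792-26910821, plus strand: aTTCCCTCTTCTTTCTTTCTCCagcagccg
Rps3, chr7:99483695-99483724, minus strand: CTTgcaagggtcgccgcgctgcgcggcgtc

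Rpl7a had the longest run of the 6, at 21 bases, while Rps28 and Rps3 had no run above 4 and 3 bases in this window. The table held 48 promoters of 40 members and lacked Rpl7, Rpl8, Rps14, Rps20, Rps29 and Rps4l. A run of at least 8 pyrimidines between 30 bases before and 50 bases after the start was found in 33 of the 48 (68.8%), against 29.0% of all 32851 promoters. CCGGAA, the core bound by ETS factors, lay on either strand in 26 of 48 promoters of 250 bases before to 50 after the start (54.2%), against 14.9% of all promoters. AAGATGG, the core of the YY1 site, lay in 7 (14.6% against 6.34%), and the E-box CACGTG in 5 (10.4% against 7.15%). These matches describe the letters in those windows and nothing about binding.

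In the comparison, 3 ribosomal protein genes were higher in Pcl2 shRNA cells, none was lower, and 41 did not pass. The 3 were Rpl39l, Rps25 and Rpl12, or 6.82% of those tested, where 4.46% of all genes tested were higher and 8.16% lower. In RNA from whole cultures, more cells with a transcript and more transcript per cell cannot be told apart. By subunit, 1 of 21 tested genes of the 40S, 2 of 21 of the 60S and 0 of 2 of the P stalk passed, with median log2 fold changes of 0.19, 0.17 and 0.14. The groups did not overlap in 5 members, with the shRNA arrays above in each (Rpl39l, Rps25, Rpl12, Rps4l and Rpl39, 11.4% of those tested), where 14.5% of all genes had the shRNA arrays above and 16.7% had them below. With the replicate number as a block, Rps4l joined the 3 (adjusted p = 0.0490) and 4 members were higher and 0 lower, against 9.97% of all genes higher and 13.8% lower.

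**Figure D1:**
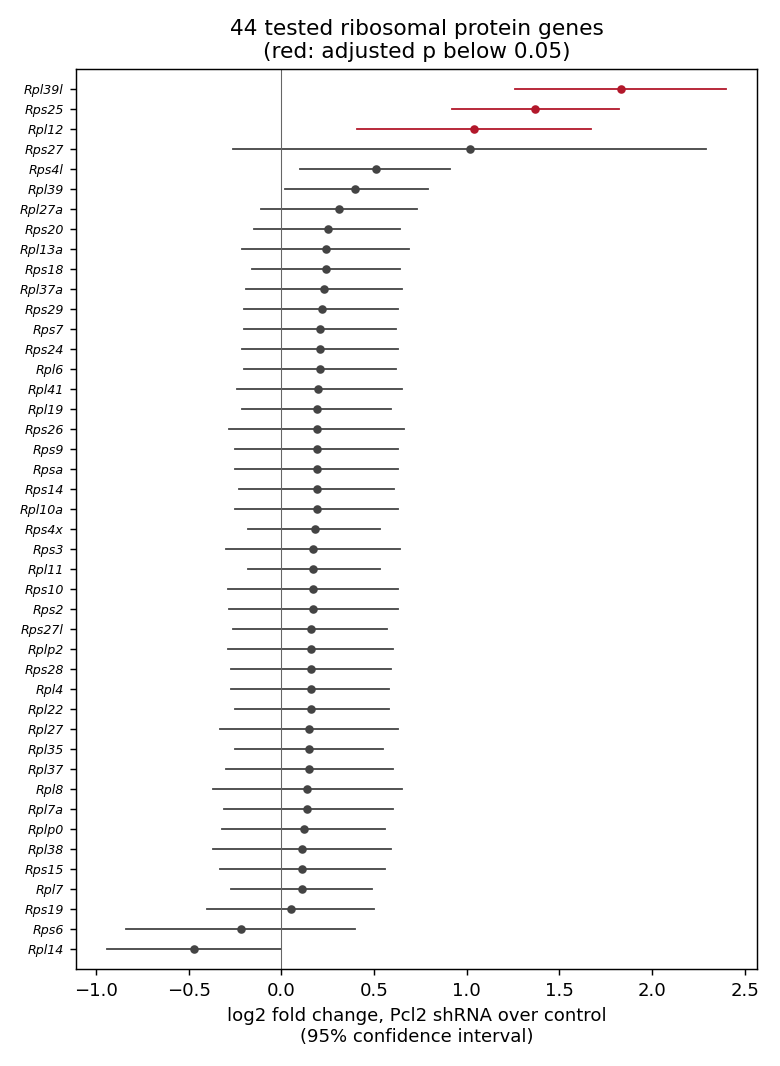
Log2 fold change of Pcl2 shRNA over mismatch control for the 44 tested ribosomal protein genes, with the 95% confidence interval of limma's fit (n = 3 arrays per group). The 3 genes in red passed the threshold, and the intervals of most others lie around 0.17 and include 0.

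Rpl39l, a paralogue of Rpl39 best known from developing sperm, had the widest difference of the 44 tested members. Its signals were 2577, 1814 and 1982 in Pcl2 shRNA cells, against 427, 894.5 and 522 in mismatch control cells. Every shRNA array lay above every control array. The mean was 2124 ± 401 in shRNA cells and 615 ± 247 in control cells, and the log2 fold change was 1.83 (SE 0.26, 95% interval 1.26 to 2.40, adjusted p = 0.00145). The call held in all 23 alternative settings, with fold changes of 1.61 to 2.14.

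The partner Rpl39, which lines the exit tunnel of the large subunit, differed much less. Its own probe set read 248.5, 208 and 225 in shRNA cells, against 185, 149.8 and 176 in control cells, so that its groups did not overlap either. The log2 fold change was 0.40 (SE 0.17, interval 0.02 to 0.79) and did not pass (adjusted p = 0.170). A probe set that names Rpl39 and 1 other gene gave 0.13.

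Rps25, a protein of the 40S head that internal ribosome entry sites rely on, was the small-subunit gene that passed with all 6 arrays and no block. It read 1582, 1067 and 1199 in shRNA cells, against 468, 403 and 605 in control cells, with no overlap. The log2 fold change was 1.37 (SE 0.20, interval 0.92 to 1.82, adjusted p = 0.00186), and it passed in all 23 alternatives at 1.21 to 1.53. This was its single probe set that names no other gene. A probe set naming Rps25 and further genes read 5390, 5741 and 7722 in shRNA cells, against 3920, 5993 and 5583 in control cells, where the groups overlapped and the difference was log2 0.29.

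Rpl12, at the base of the P stalk, where it binds ribosomal RNA, also passed. Its signals were 724, 653 and 739.6 in shRNA cells, against 195, 434 and 455 in control cells. The groups did not overlap, and control replicate 1 was the lowest array by a wide margin. The log2 fold change was 1.04 (SE 0.28, interval 0.41 to 1.67, adjusted p = 0.0370), and 0.66 without control replicate 1 (adjusted p = 0.0448). The call ended without shRNA replicate 1, 2 or 3 (adjusted p = 0.0989, 0.0859 and 0.0888), as well as without the intensity trend (0.0633), with median centring (0.0608) and with no filter on signal (0.0647). Probe sets that name Rpl12 with other genes gave 0.24 and 0.27.

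**Figure D2:**
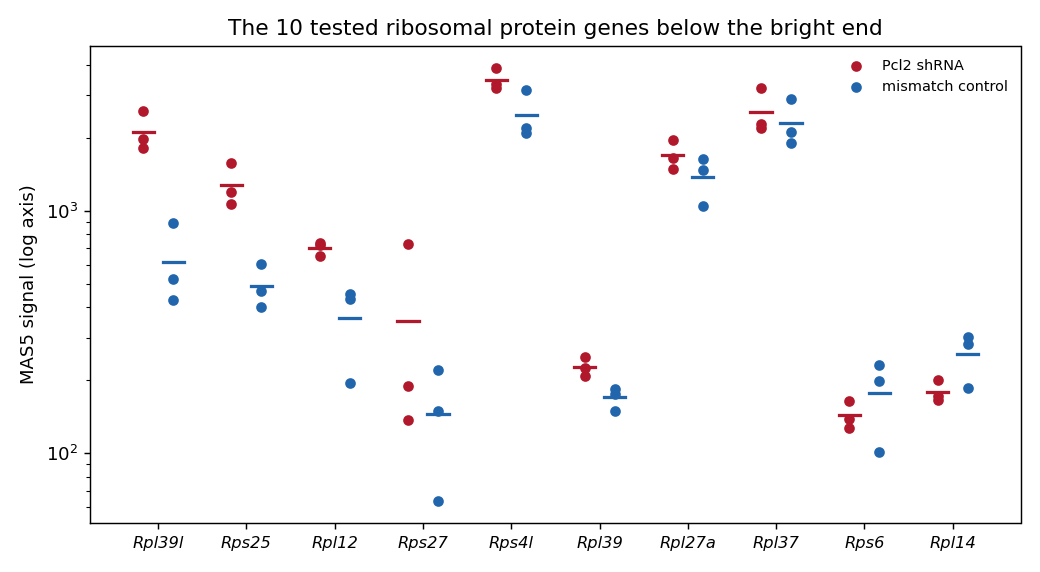
MAS5 signal (log axis) of the 10 tested ribosomal protein genes with a mean log2 value below 12, one point per array and a bar at the group mean, Pcl2 shRNA left of mismatch control for each gene. Rpl39l, Rps25, Rpl12, Rps4l and Rpl39 have all shRNA arrays above all control arrays, and the Rps27 mean rests on 1 shRNA array at 733.5.

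The annotated promoters of Rpl39l and Rps25, whose calls held in every alternative, are given beside those of Rpl39, the partner of Rpl39l, and of Rpl12, whose call did not. Each runs from 100 bases before to 20 after the start (RefSeq, GRCm38.p6), 5′ to 3′ on the gene's strand, with CCGGAA on either strand in capitals.
Rpl39l, chr16:10170128-10170247, plus strand: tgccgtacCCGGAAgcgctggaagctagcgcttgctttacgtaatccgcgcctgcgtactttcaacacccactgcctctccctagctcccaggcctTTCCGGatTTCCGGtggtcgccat
Rps25, chr9:44407614-44407733, plus strand: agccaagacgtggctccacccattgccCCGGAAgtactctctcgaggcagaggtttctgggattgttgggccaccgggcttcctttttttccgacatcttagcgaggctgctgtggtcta
Rpl39, chrX:37085203-37085322, minus strand: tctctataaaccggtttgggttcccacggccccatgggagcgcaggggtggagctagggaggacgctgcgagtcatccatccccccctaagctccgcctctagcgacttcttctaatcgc
Rpl12, chr2:32961612-32961731, plus strand: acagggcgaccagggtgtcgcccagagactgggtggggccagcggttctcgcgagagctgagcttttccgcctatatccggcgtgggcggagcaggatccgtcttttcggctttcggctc

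The Rpl39l window held 3 matches to CCGGAA and the Rps25 window 1, while those of Rpl39 and Rpl12 held 0. In the longer window given above, 26 of 48 promoters of members held a match. Most members did not pass, and a link between matches and calls was not tested.

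The remaining paralogues gave smaller differences or none that passed. Rps4l, a paralogue of the X-linked 40S gene Rps4x, read 3218, 3323 and 3899 in shRNA cells, against 2189.8, 3163 and 2089.6 in control cells. All shRNA arrays lay above the control arrays, the nearest being control replicate 2. The log2 fold change was 0.51 (SE 0.18, interval 0.10 to 0.91, adjusted p = 0.103). It passed with the block, as given above, and without control replicate 2 (0.69, adjusted p = 0.0177).

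Rps4x itself read 8097, 7740.3 and 9835 in shRNA cells, against 6524, 8349 and 7792 in control cells, with overlap and a difference of log2 0.18 (SE 0.16, adjusted p = 0.542). Rps27l, a paralogue of Rps27 that p53 activates, overlapped too, with 6092 ± 941 in shRNA cells and 5496 ± 1081 in control cells and a difference of log2 0.16 (SE 0.19, adjusted p = 0.659). Rps27 had 136.8, 189 and 733.5 in shRNA cells, against 221, 63.4 and 150.2 in control cells. Its log2 fold change of 1.02 (SE 0.57, interval -0.26 to 2.29, adjusted p = 0.306) rested on 2 arrays, being 0.30 without shRNA replicate 3 and 0.54 without control replicate 2, and a probe set shared with another gene gave 0.27. Rpl3 and Rpl10 were named only together with other genes, and their bright probe sets gave 0.12 for Rpl3 and 0.17 and 0.18 for Rpl10. A dimmer Rpl3 probe set gave 0.91, with means of 728 in shRNA cells and 407 in control cells.

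Rpl3l, the muscle paralogue of Rpl3, was too dim for the test. It read 29.3, 25.4 and 22.0 in shRNA cells, against 10.7, 5.09 and 13.6 in control cells. All shRNA arrays exceeded 20.3, the highest signal of 27 bacterial control probe sets with no spiked RNA, and all control arrays lay below it. With the control arrays set at that level, the signal ratio of shRNA over control was 1.25. That level was chosen after the values were seen and lies close to the shRNA signals, so the ratio sets no bound on expression. Tested without the filter, Rpl3l did not pass (adjusted p = 0.0633). Rps16 stayed below that level on all 6 arrays, at no more than 1.24 in shRNA cells and 0.87 in control cells, on the only probe set that names it alone. Bright probe sets shared with other genes gave Rps16 values of 0.17 and 0.18.

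No ribosomal protein gene fell past the threshold, and 2 of the 44 had a fold change below 0. Rpl14, of the 60S, read 165.6, 201 and 173 in shRNA cells, against 281.5, 301 and 185 in control cells. The groups overlapped through control replicate 3, and the log2 fold change was -0.47 (SE 0.21, adjusted p = 0.196). Without that array it was -0.68 and passed (adjusted p = 0.0460), while 5 probe sets that name Rpl14 and 1 other gene gave 0.14 to 0.23. Rps6, the 40S target of S6 kinase, read 139, 126.7 and 164 in shRNA cells, against 231, 198 and 102 in control cells, which gave log2 -0.22 (SE 0.28, adjusted p = 0.684). That value was 0.00 without control replicate 1 and -0.56 without control replicate 3, and the 4 bright probe sets that name Rps6 and 1 other gene gave 0.16 to 0.22. Rpl27a of the 60S gave 0.31 (SE 0.19, adjusted p = 0.352), 0.13 to 0.44 with 1 array left out, and its bright shared probe set 0.21. With Rpl37 (0.15, SE 0.20, adjusted p = 0.707) it completed the 10 tested members below the bright end.

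The other 34 tested members lay at the bright end of the array, with a mean log2(signal + 7) of at least 12, and none of them passed. The limit of 12 was set after the values were seen. It falls between 11.51, the mean of the brightest member below it, and 12.15, that of the dimmest above. Their fold changes ran from 0.05 for Rps19 to 0.25 for Rps20, with a median of 0.17 and an SD of 0.04 between genes, while those of the 10 dimmer members ran from -0.47 to 1.83 (SD 0.72). Their adjusted p-values were 0.431 to 0.909, none had an unadjusted p below 0.05 in limma's fit, and the groups overlapped in all 34. The upper bounds of the 95% intervals were 0.49 to 0.69 and the lower bounds -0.40 to -0.15, so that differences of that size were not resolved.

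**Figure D3:**
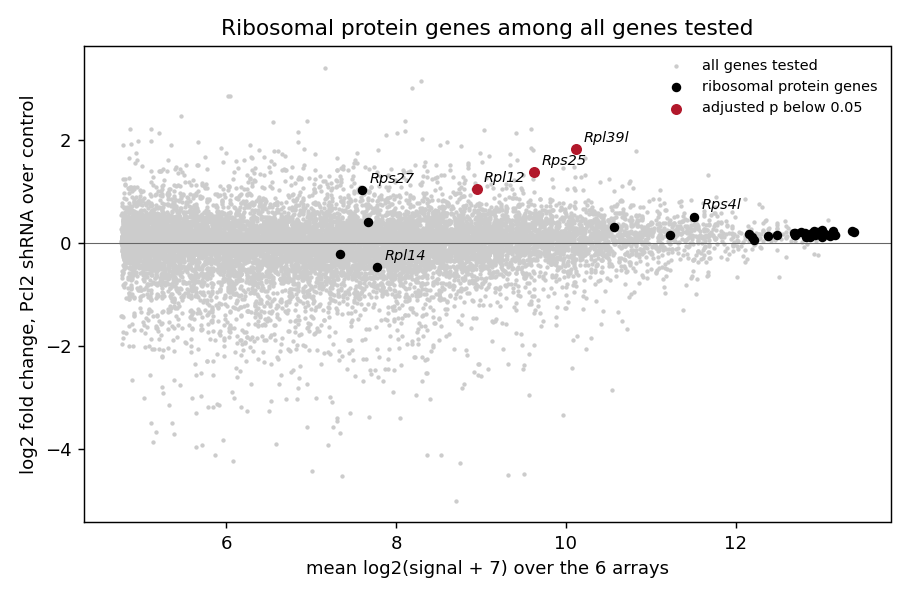
Log2 fold change of Pcl2 shRNA over mismatch control against mean log2(signal + 7) over the 6 arrays, with the 13095 genes tested in grey and the 44 ribosomal protein genes on top. The members above a mean of 12 lie between 0.05 and 0.25. Quantile normalization, which levels the bright end of the arrays, takes this shift to about 0. The 3 members in red, which passed, lie below a mean of 12.

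Rps29 of the 40S gave the highest signal of any probe set on 5 of the 6 arrays, and Rps18, of the 40S head, on the other one. Rps29 read 9941, 11016 and 14122 in shRNA cells, against 8091, 11156 and 10931 in control cells (log2 0.22, SE 0.19, adjusted p = 0.526). Rps18 read 10429, 10371 and 14008 in shRNA cells, against 8022, 10490.1 and 10899.5 in control cells (log2 0.24, SE 0.18, adjusted p = 0.454). In both genes shRNA replicate 3 was the highest array and control replicate 1 the lowest, with the rest close together. The same held for Rps28, at 8324.5, 9207 and 12133 in shRNA cells, against 6995, 10188 and 9386 in control cells (log2 0.16, SE 0.19, adjusted p = 0.673).

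The P stalk genes, whose proteins recruit elongation factors, followed that order. Rplp0 read 6308, 7305 and 9500.1 in shRNA cells, against 5547, 8223 and 7475 in control cells (log2 0.12, SE 0.20, adjusted p = 0.766). Rplp2 read 7378, 6871 and 10392 in shRNA cells, against 5823, 8237.5 and 7908 in control cells (log2 0.16, SE 0.20, adjusted p = 0.682). Rpl11, which with Rpl5 and 5S RNA binds Mdm2 when ribosome assembly fails, read 4483, 4433 and 5666 in shRNA cells, against 3757, 4679 and 4478.5 in control cells (log2 0.17, SE 0.16, adjusted p = 0.561). Rpl5 was named only with another gene, and its 3 such probe sets gave 0.19, -0.35 and -0.23, the first being the bright one.

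Every one of the 34 bright members was lowest on control replicate 1 and highest on shRNA replicate 3. Their median log2 value was 12.85, 12.90 and 13.31 in shRNA cells, against 12.51, 13.02 and 12.93 in control cells, a difference of 0.20 (exact two-sided permutation p = 0.6, where 0.1 is the smallest that 3 against 3 arrays allow). Around each gene's mean the common profile had an SD of 0.262 over the arrays, and single genes left it by an SD of 0.065. Over the 561 pairs of bright members the correlation across the 6 arrays had a median of 0.97 and a lowest value of 0.60, points that share arrays and scaling.

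Other bright measurements, though not the dimmer spikes, shared the highest and the lowest array of this profile. The order of the arrays between these ends differed, and their swings were narrower. The 104 other genes tested with a mean of at least 12 had a median log2 value of 12.39, 12.46 and 12.63 in shRNA cells, against 12.17, 12.55 and 12.33 in control cells (difference 0.14, exact permutation p = 0.4). The 4 probe sets for Cre, a bacteriophage RNA spiked in at hybridisation and so no product of the cells, averaged 12.98, 12.85 and 13.24 in shRNA cells, against 12.77, 12.93 and 12.94 in control cells (difference 0.14, exact permutation p = 0.4). All 4 were highest on shRNA replicate 3 and 3 of them were lowest on control replicate 1, as was their mean, while 1 was lowest on control replicate 2. The 14 probe sets for the dimmer spikes BioB, BioC and BioD did not have this profile, with a mean of 9.81, 9.26 and 9.61 in shRNA cells, against 9.66, 9.30 and 9.37 in control cells (difference 0.12, exact permutation p = 0.7). Set against Cre on each array, the bright ribosomal protein genes stood at -0.14, 0.05 and 0.07 in shRNA cells, against -0.26, 0.10 and -0.01 in control cells, a difference of 0.05 (exact permutation p = 0.7). Against the other bright genes they stood at 0.46, 0.45 and 0.68 in shRNA cells and 0.34, 0.47 and 0.60 in control cells. That difference was also 0.05 (exact permutation p = 0.7).

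**Figure D4:**
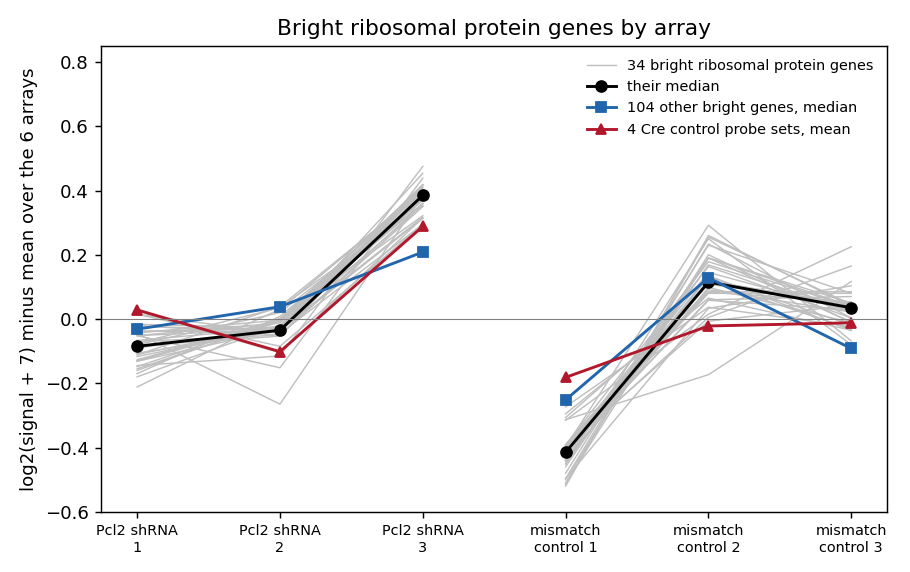
Log2(signal + 7) minus its mean over the 6 arrays, Pcl2 shRNA arrays left of mismatch control arrays, for the 34 bright ribosomal protein genes (grey, 1 line per gene), their median (black), the median of 104 other bright genes (blue) and the mean of 4 spiked Cre probe sets (red). All 34 genes are lowest on control replicate 1 and highest on shRNA replicate 3, as is the mean of the Cre probe sets.

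Over all 44 tested members the median log2 fold change was 0.18, against 0.02 over all genes tested, and 42 of the 44 were above 0, against 52.4% of all genes. Of the 44, the 34 bright ones moved as 1 profile over the arrays, so they are not separate results. Most of all genes tested lie at lower signal. Against other bright genes alone, the bright members differed by 0.05, as given above. The common shift of 0.16 of members over all genes was -0.01 with quantile normalization (0.02 for members, 0.03 for all genes). It was 0.02 with cyclic loess normalization (0.01 and -0.01). Both normalizations level the bright end of the arrays, where most members lie, so a shared shift there is removed whatever its origin. Scalings that move all genes of an array alike cancel in this difference, which stayed at 0.16. Median centring gave 0.12 for members and -0.04 for all genes. Scaling on Cre, chosen after the data were seen, gave 0.04 and -0.12. The origin of the shift was not tested. The median of members was 0.01 without control replicate 1 and 0.04 without shRNA replicate 3, and 0.24 to 0.29 when another array was left out. The calls of Rpl39l and Rps25 held under all 4 of those scalings, and that of Rpl12 under each but median centring.

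**Figure D5:**
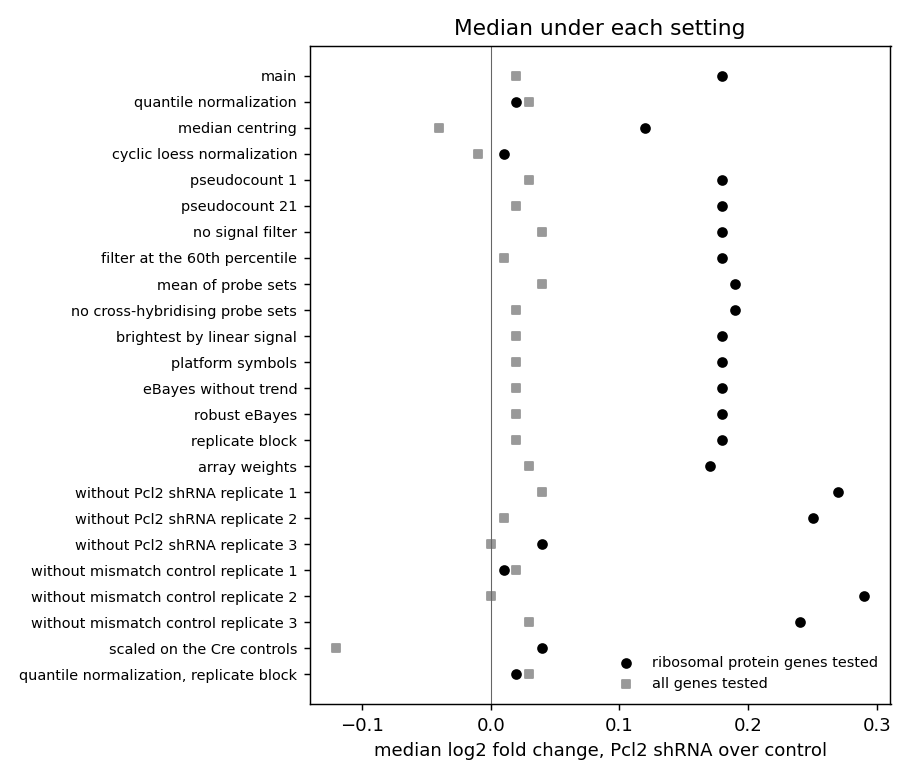
Median log2 fold change of Pcl2 shRNA over mismatch control of the tested ribosomal protein genes (black) and of all genes tested (grey), with each processing setting on a row of its own. The ribosomal protein median is 0.18 in the main setting and 0.01 to 0.04, near that of all genes, with quantile or cyclic loess normalization and without control replicate 1 or shRNA replicate 3, while scaling on Cre puts it at 0.04 and that of all genes at -0.12.

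Many ribosomal protein genes could be read only from probe sets that also name another gene. There were 110 such probe sets, which covered 15 members again and 28 further ribosomal protein genes. Over all 110 the median log2 fold change was 0.20, with a range of -1.93 to 0.93 and 12 below 0. The 74 bright ones ranged from 0.03 to 0.73, and all 12 below 0 were among the other 36. The lowest, which names Rpl13 of the 60S and 1 other gene and was singled out after its value was seen, read 284.8, 194 and 156 in shRNA cells, against 1179, 559.8 and 775 in control cells. Its groups did not overlap, and no test was run on probe sets that name several genes. The bright probe sets that name Rpl13 and 1 other gene gave 0.22, 0.23 and 0.27. Among the 19 members with more than 1 tested probe set of their own, none had fold changes of both signs. Some members had a dim second probe set with a wider difference than the bright one. Examples were 0.85 against 0.24 for Rps18, 0.78 against 0.19 for Rps9 and 0.74 against 0.21 for Rps24. The groups overlapped for that Rps24 probe set, and another dim Rps9 probe set gave 0.23. These genes were singled out here after their values were seen. Dim and bright probe sets of a gene can read different transcript ends or copies, which was not tested.

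Genes that are mutated in human Diamond-Blackfan anaemia, a failure of red cell production, included 11 tested members. None of them passed, where 4.46% of all genes tested were higher and 8.16% lower. In 11 genes such a count does not set them apart. Their median of 0.17 was also that of the bright members.

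Few other genes of the translation machinery passed, as counted below list by list. Over all genes tested, 4.46% were higher and 8.16% lower, and no list was tested against these shares. Of 6 ribosomal paralogues and fusion-encoded proteins outside the symbol pattern, none passed (median 0.25), and the brightest, Rps3a1 of the 40S, was at 9613 ± 1776 in shRNA cells and 8641 ± 1610 in control cells (log2 0.16, SE 0.19, adjusted p = 0.669). Fau, the next brightest of the 6, gave 0.10 (SE 0.22, adjusted p = 0.818). Of 19 transcripts with a TOP motif outside the ribosome none passed (median 0.16). The 19 include the non-coding Gas5, Snhg1 and Snhg12, and Vim and Hnrnpa1, which are not translation machinery. Within this list the elongation factor Eef1a1 was at 10092 ± 2150 in shRNA cells and 9061 ± 2133 in control cells (log2 0.16, SE 0.21, adjusted p = 0.693). The nucleolar chaperone Npm1 gave 0.18 (adjusted p = 0.599). Of 29 initiation factors 1 fell, the scaffold Eif4g3, with 243 ± 31.2 in shRNA cells and 526 ± 88.9 in control cells (log2 -1.09, SE 0.18, adjusted p = 0.00370), and the list's median was 0.14.

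Among 55 nucleolar ribosome biogenesis factors 1 rose, Dkc1, the pseudouridine synthase of ribosomal RNA, with 3827 ± 512 in shRNA cells and 2127 ± 250 in control cells (log2 0.84, SE 0.16, adjusted p = 0.00649), and the median was 0.17. None of 12 genes of RNA polymerase I and its factors passed (median 0.22), with 0.15 for the subunit Polr1d and 0.23 for Polr1c. Of 21 regulators of ribosomal protein synthesis 1 fell, Rragd, a Rag GTPase that brings mTOR to lysosomes, with 221 ± 53.2 in shRNA cells and 429 ± 76.3 in control cells (log2 -0.95, SE 0.22, adjusted p = 0.0171), and the median was 0.04. A list around p53 held Mdm2, Mdm4, Cdkn2a, p53 itself (Trp53) and its target Cdkn1a, of which 4 were tested. Of these 1 rose, the p53 inhibitor Mdm4 (log2 0.98, SE 0.28, adjusted p = 0.0471), and the list's median was -0.41.

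Mitochondrial ribosomal proteins build the separate ribosome of that organelle. Where 4.46% of all genes tested rose and 8.16% fell, 5 of 76 rose and 2 fell, with a median of 0.16. The smallest p-values belonged to Mrps31, with 725 ± 43.6 in shRNA cells and 461 ± 29.7 in control cells (log2 0.64, adjusted p = 0.0167), Mrps25 (log2 -0.90, adjusted p = 0.0186), Mrps24 (log2 0.62, adjusted p = 0.0191) and Mrps17 (log2 0.53, adjusted p = 0.0322). Of 34 constitutive proteasome subunits, another set of abundant housekeeping genes, none passed, with a median of 0.16. Whether the members differ from these lists was not tested.

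Over the whole array Mtf2, the targeted gene, was at 1028 ± 150 in shRNA cells and 1723 ± 220 in control cells (log2 -0.74, SE 0.17, adjusted p = 0.0157) without overlap. The call ended without shRNA replicate 3 (adjusted p = 0.0574) or control replicate 1 (adjusted p = 0.0519), the arrays at the ends of the bright members' profile. The stem cell markers were present, with all 7 tested, 3 of them higher (Zfp42, Tdgf1 and Sox2) and their summed signal at 31610.0 to 42253 in shRNA arrays and 20058 to 26076 in control arrays. Of 5 tested trophectoderm markers 3 fell (Krt8, Krt18 and Cdx2), and the summed signal of the 6 listed was 1047 to 1446 in shRNA arrays and 4879 to 9260.5 in control arrays. The 9 fibroblast markers summed to 281 to 610.5 in shRNA arrays and 387 to 998 in control arrays, with Dcn and Lum at background and none passing of 5 tested. Of 3 tested endoderm markers 1 fell, Dab2, and their median log2 fold change was 0.0. Afp was at background, and the 6 listed summed to 172 to 210.1 in shRNA arrays and 275 to 387 in control arrays. Of 3 tested neural markers 1 fell, Nes, while their median log2 fold change was 0.11. The 4 on the array summed to 286 to 351 in shRNA arrays and 259.8 to 422.5 in control arrays. The part of these cell states in the values of Rpl39l, Rps25 and Rpl12 was not tested.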

How the data were processed

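Each array was a Mouse Genome 430 2.0 GeneChip read on a GeneChip Scanner 3000, per the labels. The deposited intensity is the MAS5 signal that the authors computed with GCOS 1.4, per the submitters' processing notes and the labels. With 2% trimmed from each end its mean was 150.001 on every array, and this scaling was kept. The sources used here give no further settings.

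Of 45101 probe sets, the platform annotation gave 34945 a single gene, 932 more than 1 gene and 9160 no gene, and 64 were controls. Symbols were updated through the GRCm38.p6 gene table, which held 34741. The signal was taken as log2(signal + 7), near the 20th percentile of all values, a scale that understates differences of dim genes. Testing needed a probe set whose mean reached the 40th percentile (signal 20.2), and 23186 gave 13095 genes. The model was limma 3.58.1 in R 4.3.3 (lmFit, eBayes with trend), two-sided. Single values used an exact permutation test over the 20 relabellings. The number of arrays limits the precision.

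The genes, lists, markers and tests were chosen with earlier results of these data known. Named were Mtf2, genes past the threshold, the 8 members with the smallest p, the brightest and dimmest 3, the 2 with the largest differences in each direction, stalk genes, Rpl5, Rpl11, tissue paralogues with their partners, and per list up to 4 passing genes by p, or the brightest 2 if no gene passed. No gene of the proteasome list was named. Rps9, Rps19, Rps20, Rps24 and Rpl37 and the genes whose start sites are printed were added after their values were seen. So were the background level of 20.3, the limit of 12 and the scaling on Cre.

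The labels number the samples 1 to 3 in each group and say nothing of a shared culture or day. Deviations from the group means correlated at 0.25 to 0.397 between samples with the same number and at -0.382 to -0.00115 between others. The deviations sum to 0 within a group, so these ranges are not independent. The main fit did not pair samples. The fit with the replicate number as a block was an alternative, and its pairing rests on the data alone. No arrays were duplicates: log2 values correlated at no more than 0.977.

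The alternatives were quantile, median and cyclic loess normalization, pseudocounts of 1 and 21, a filter at the 60th percentile or none, averaged probe sets, no cross-hybridising probe sets, the brightest probe set by linear signal, platform symbols, robust eBayes, eBayes without trend, array weights, the replicate block, leaving out each array and, added after the data were seen, scaling on Cre and quantile normalization with the block. The fit was tested on simulated data.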

Additional observations from a re-analysis of the deposited data

How the results depend on the processing

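With 3 arrays per group, the fold changes of bright ribosomal protein genes had standard errors of 0.16 to 0.23, and shifts of that size cannot be resolved. Of 23 alternative settings, Rpl39l and Rps25 passed in all and Rpl12 in 17. The count of higher members was 3 in the main setting and 2 to 4 with 1 array left out. It was 5 of 44 with quantile normalization and the replicate block, where Rps4l (adjusted p = 0.0326) and Rpl39 (adjusted p = 0.0328) joined. In that setting 1387 of all 13091 genes tested were higher. The count of lower members was 0 to 1 with 1 array left out, the 1 being Rpl14 without control replicate 3. The median of the members, 0.18 in the main setting, ran from 0.01 to 0.29 over fits without 1 array.

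Over all genes, 584 were higher and 1068 lower in the main setting. With the replicate block these counts were 1305 and 1808, and with quantile normalization and the block 1387 and 1713. Array weights gave 885 higher and scaling on Cre 313. Leaving out 1 array gave 261 to 577 higher and 718 to 1021 lower. The fold change of Mtf2 was -0.84 to -0.63 without 1 array, with an adjusted p of up to 0.0574. On the deposited scaling the replicate block changed the call of Rps4l among the named members and no other, and with quantile normalization it also changed that of Rpl39 (adjusted p = 0.101 without the block). The cause of these changes was not tested.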
